A study of Saccharomyces cerevisiae with 32 samples.

Results

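YRF1 is a family of 8 near-identical open reading frames (ORFs) that lie in the Y' elements of the budding yeast Saccharomyces cerevisiae. They were chosen by name, YRF1-1 to YRF1-8, out of 6696 ORFs counted, after it was seen that their mRNA differed between isolates. YRF1 mRNA levels are therefore described without a test. Y' elements are repeated blocks of DNA next to the telomeric repeats at many, but not all, chromosome ends, and yeast strains differ in how many they carry. YRF1 encodes a helicase-like protein. It is known from cells that have lost telomerase and survive by recombination, in which Y' elements multiply and the protein is made.

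The samples were 8 natural isolates, CPI, BPL, BTT, BED, CQC, AMH, BAN and CMP, each labelled wild type and grown in SC medium (a synthetic medium). For every isolate there were 2 mRNA libraries and 2 libraries of ribosome footprints, the pieces of mRNA that ribosomes protect from RNase I, 32 libraries in all. The mRNA libraries held 3703931 to 11570247 reads on ORFs, and the footprint libraries 27621 to 4391002. DNA was not measured in the files used here, so the number of Y' elements in an isolate and the mRNA made per element cannot be told apart.

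In the reference genome (R64, positions from 1), 5 of the 8 copies are the last gene record at the right end of a chromosome. These are YRF1-1 (YDR545W, chromosome IV, 1526321 to 1531711), YRF1-2 (YER190W, V, 571480 to 576525), YRF1-3 (YGR296W, VII, 1084864 to 1090591), YRF1-5 (YLR467W, XII, 1072508 to 1077898) and YRF1-8 (YOR396W, XV, 1085473 to 1090863). YRF1-6 (YNL339C, XIV, 371 to 6098) and YRF1-7 (YPL283C, XVI, 280 to 6007) lie at left ends. YRF1-4 (YLR466W, XII, 1067087 to 1071235) is the one copy further in, just before YRF1-5, and it ends 6663 bases before the end of YRF1-5. YRF1-4 is also the shortest, with a span of 4149 bases against 5046 to 5728 in the others. The spans of YRF1-3, YRF1-6 and YRF1-7 exceed their codons by 148 bases, and those of the other copies do not.

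The copies were not separate measurements. YRF1-1, YRF1-5 and YRF1-8 differed by at most 5 mRNA reads in all 16 libraries and were equal in 10 of them, 7 of which had reads. YRF1-3 and YRF1-7 differed by at most 3 mRNA reads. YRF1-6 was within 17 reads of YRF1-7 in AMH, BAN, BED, BTT and CMP. It had fewer reads than YRF1-7 in CQC (387 and 280 in the first and second library, against 465 and 372) and in CPI (1813 and 2157 against 1943 and 2335), and more in BPL (2744 and 3072 against 2659 and 2953). The copies of such a group are taken to share their reads, so a sum over the 8 copies holds reads more than once. Such a sum serves to order the isolates, and YRF1-1, YRF1-7, YRF1-2 and YRF1-4 stand below for what the counting could tell apart.

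Summed YRF1 mRNA was not seen in CMP and varied widely among the other 7 isolates. It was highest in CPI, with 1916 and 2030 CPM (counts scaled to equal library totals) in the first and second library (mean 1973 ± 80.7, SD, n = 2). BPL had 1640 and 1865 CPM, BTT 1784 and 1574, and BED 1192 and 1197. CQC had 504 and 452 CPM, AMH 354 and 119, and BAN 21.0 and 2.7. CMP had 0 reads in both libraries. The order was thus CPI, BPL, BTT, BED, CQC, AMH, BAN and CMP, and only the neighbours BPL and BTT overlapped in their libraries.

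The absence of reads in CMP held at every one of the 8 copies. Its 2 mRNA libraries held 11911447 reads on ORFs, and a count of 0 allows up to 0.252 CPM per copy (3 reads over both libraries, counting error only). Against that floor, the pooled YRF1-1 level was 1328-fold higher in CPI, 872-fold in BED, 701-fold in BPL and 673-fold in BTT. It was 262-fold higher in CQC, 102-fold in AMH and 6.11-fold in BAN. At YRF1-7 the largest such ratio was in BPL, 1112-fold. These ratios allow for counting error in CMP but not in the other isolate. In BAN, YRF1-1 had 12 reads in the first library and 0 in the second. Its pooled level there was 1.54 CPM, with a counting interval of 0.795 to 2.69 CPM. CMP therefore has no YRF1 mRNA that could be seen with reads placed on this reference. Whether its Y' sequences are missing, silent or too different from the reference to be placed cannot be told apart here.

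Between CPI and BAN, the highest and lowest isolates with reads, summed YRF1 mRNA differed by 7.20 on the log2 scale in edgeR's fit over all ORFs. With CMP left out, the differences from the mean of the other 6 isolates were 2.32 ± 0.28 (SE) in CPI, 1.87 ± 0.28 in BPL, 1.78 ± 0.29 in BTT and 1.31 ± 0.30 in BED. They were 0.10 ± 0.32 in CQC, −1.30 ± 0.36 in AMH and −6.08 ± 0.53 in BAN.

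**Figure D1:**
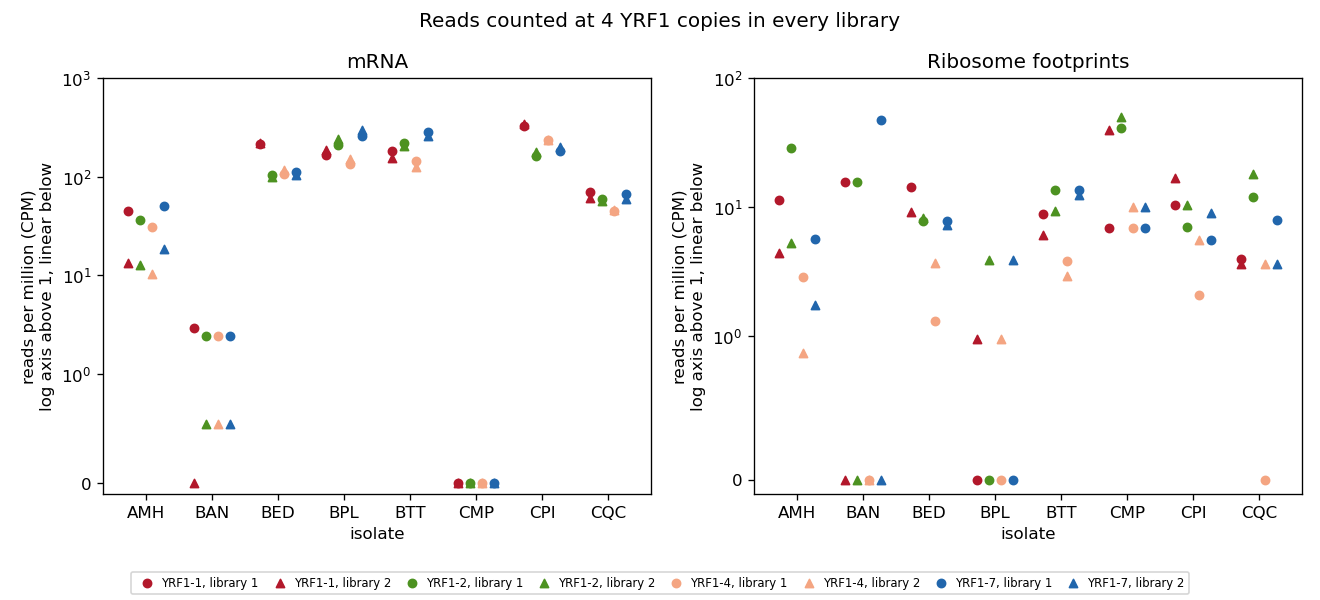
mRNA (left) and ribosome footprint (right) levels of YRF1-1, YRF1-2, YRF1-4 and YRF1-7 in CPM in every library (circles, library 1; triangles, library 2), on an axis that is logarithmic above 1 and linear below. CMP is at 0 mRNA reads for every copy and BAN is next. The footprint levels rest on few reads, and BPL is lowest in the mean of the sum over all copies, while BAN is at 0 for YRF1-4.

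The libraries of AMH and BAN stood apart at YRF1. In AMH the first library was 2.98-fold above the second, a gap larger than that of 99.6% of 5358 other ORFs with at least 100 reads. The other Y' ORFs of AMH differed alike, by 2.90-fold. In BAN the gap was 7.44-fold on 86 and 10 summed reads, and in the other isolates with reads it was 1.0 to 1.14-fold. Positions of AMH and BAN in the order are thus less certain than the others, although BAN stayed below AMH in both libraries. With one library left out, the difference between CPI and BAN was 6.60 to 9.0 on the log2 scale.

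Long ORFs as a class moved between isolates in much the same order. Of ORFs outside the Y' elements, 204 were at least as long as YRF1-4, and their median log2 difference from the mean of the other 7 isolates was 0.87 in CPI, 0.77 in BTT, 0.39 in BPL and 0.23 in BED. It was −0.20 in AMH, −0.56 in CMP, −0.67 in CQC and −0.76 in BAN, while the median of shorter ORFs lay between −0.03 and 0.05. The first AMH library was also above the second for long ORFs, by a median of 0.54 on the log2 scale against 0.02 for shorter ORFs, and the first BAN library by 0.66 against 0.38. The part of ORF length in the YRF1 order was not tested.

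The isolates differed in which copies took the reads. YRF1-1 had 1697 and 2368 mRNA reads in BED, and YRF1-7 had 875 and 1108. In CPI, YRF1-1 had 3477 and 3946 reads and YRF1-7 had 1943 and 2335. The balance was turned round in BPL, with 1687 and 1851 reads at YRF1-1 and 2659 and 2953 at YRF1-7. BTT was like BPL, with 1813 and 1573 reads at YRF1-1 and 2836 and 2624 at YRF1-7.

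As a ratio within a library, free of sequencing depth, YRF1-1 over YRF1-7 was 1.94 and 2.14 in BED and 1.79 and 1.69 in CPI. It was 1.06 and 1.02 in CQC, 0.877 and 0.716 in AMH, 0.634 and 0.627 in BPL, and 0.639 and 0.599 in BTT. BED and CPI lay above 1, BPL, BTT and AMH below it, and CQC at it. BED and BTT, at the ends, differed by 1.71 on the log2 scale. BPL and BTT were close in this ratio as well as in their level, whereas CPI, next to them in level, had the opposite balance. BAN had 12 reads at each of these copies over both libraries, too few for a ratio.

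YRF1-4, the inner and shortest copy, took a different share again. Its reads were 0.50 and 0.529 of those at YRF1-1 in BED, 0.718 and 0.694 in CPI, 0.637 and 0.746 in CQC, and 0.695 and 0.780 in AMH. In BPL they were 0.809 and 0.808, and in BTT 0.796 and 0.805. BED had the lowest share in both libraries. YRF1-2 tracked YRF1-7 more closely, with ratios of 0.675 to 0.955 in the 6 isolates other than BAN and CMP.

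**Figure D2:**
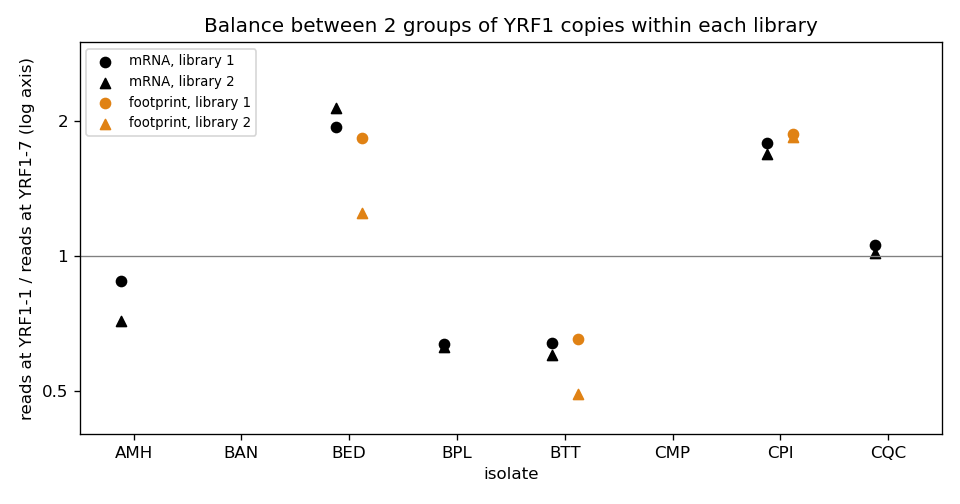
Reads at YRF1-1 divided by reads at YRF1-7 in each library (log axis; black, mRNA; orange, footprints; circles, library 1; triangles, library 2), for libraries with at least 100 mRNA or 5 footprint reads at both copies, which leaves BAN and CMP without points. BED and CPI lie above 1 and BPL and BTT below it, and the footprint ratios of BED, CPI and BTT lie on the same side as their mRNA ratios.

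Footprints on YRF1 were few. The sum over the copies was 554 reads in BTT, 218 in CPI, 122 in BED, 57 in AMH, 31 in CMP, 27 in CQC, 22 in BPL and 7 in BAN, over 2 libraries each. At YRF1-7, BTT had 43 and 55 footprint reads, CPI 8 and 13, BED 6 and 8, and AMH 2 and 2. BPL had 0 and 4 reads there, CQC 2 and 1, CMP 1 and 1, and BAN 3 and 0. The first BPL library and the second BAN library had no footprint read on any copy.

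In CPM, summed YRF1 footprints were 89.6 and 180 in CMP, 56.2 and 96.9 in CPI, 85.5 and 65.1 in BTT, and 76.4 and 58.9 in BED. They were 48.2 and 54.4 in CQC, 83.0 and 24.7 in AMH, 111 and 0 in BAN, and 0 and 21.6 in BPL. BPL lay below every isolate but BAN, with which it overlapped. CMP lay above AMH, BED, BPL, BTT and CQC and overlapped CPI and BAN, and BAN overlapped every other isolate. CMP, lowest in mRNA, was the highest in mean and BPL the lowest, and their fitted difference of 2.97 on the log2 scale stood beside a spread of 2.62 between libraries. Where footprints were most numerous, their balance between copies leaned to the same side as that of the mRNA. Pooled footprint reads at YRF1-1 and YRF1-7 were 39 and 21 in CPI, 21 and 14 in BED, and 55 and 98 in BTT. The counting intervals of the 2 copies overlapped in CPI and in BED (7.04 to 17.4 and 4.15 to 12.7 CPM). They did not in BTT (5.51 to 9.51 and 10.6 to 15.9 CPM). AMH leaned the other way, with 9 and 4 footprint reads against 449 and 548 mRNA reads.

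Translation efficiency (TE, footprint CPM divided by mRNA CPM) was low for YRF1 in the isolates with most YRF1 mRNA. At YRF1-7, TE was 0.0477 in BTT (95% counting interval 0.0386 to 0.0582), 0.0382 in CPI (0.0236 to 0.0585), 0.0708 in BED (0.0386 to 0.119) and 0.00860 in BPL (0.00234 to 0.0220). The medians over other ORFs with at least 100 mRNA reads were 0.540, 0.599, 0.503 and 0.516 in the same order. In these 4 isolates all 8 copies lay between the 0.988th and 1.92nd percentile of those ORFs in TE. Their mRNA levels per length were ordinary there, from the 31.9th to the 66.1st percentile.

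ORFs as long as YRF1 had lower TE than others too, so YRF1 was also set against them. Their median TE was 0.220 in BTT, 0.259 in CPI, 0.260 in BED and 0.236 in BPL. Below the highest YRF1 copy lay 28 of 202 long ORFs in BTT, 27 of 200 in CPI, 10 of 187 in BED and 3 of 174 in BPL. No source used here names the counting tool or its limit on how many places a read may match. Short footprints may match several copies more often than mRNA reads do, which was not measured. The part of such a limit in these low values was not tested.

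YRF1 mRNA was lower in AMH and CQC, and TE there rested on 1 to 16 footprint reads per copy. YRF1-7 had a TE of 0.0860 in AMH (0.0233 to 0.221) and 0.0901 in CQC (0.0185 to 0.264). These values pool 2 libraries per assay, and those of AMH were unlike. At YRF1-7 they had 50.8 and 18.6 mRNA CPM and 5.73 and 1.76 footprint CPM. Their footprint depths were 349307 and 1134437 reads. The counting intervals do not cover such differences. YRF1-2 had 0.488 in AMH (0.276 to 0.803), at the 42.8th percentile, from 10 and 6 footprint reads. In CQC YRF1-2 had 0.261 (0.112 to 0.517), at the 10.9th percentile, from 3 and 5 reads. The intervals of YRF1-2 and YRF1-7 did not overlap in AMH and did in CQC. YRF1-2 was picked out after its values were seen, and the intervals leave out the spread between libraries. Its AMH footprints were 28.6 and 5.29 CPM, so no difference between the copies is drawn from this. In BTT, with more reads, YRF1-4 had a TE of 0.0245 (0.0158 to 0.0363), below that of YRF1-2 at 0.0524 (0.0417 to 0.0651). YRF1-2 also took 6 and 5 of CMP's footprint reads, more than any other copy there.

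**Figure D3:**
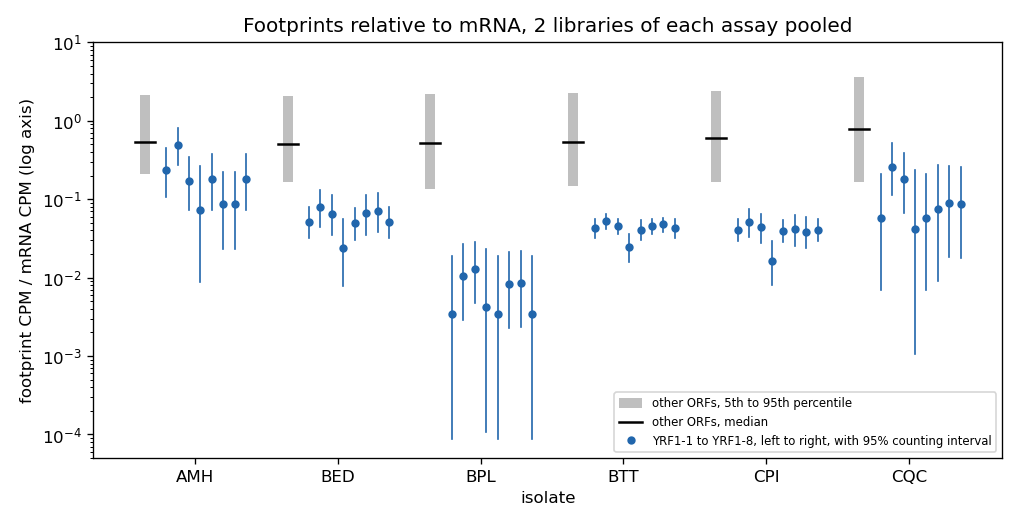
Translation efficiency (footprint CPM over mRNA CPM, log axis) of YRF1-1 to YRF1-8, left to right, in the 6 isolates with at least 100 mRNA reads at every copy, with 95% counting intervals; grey bars give the 5th to 95th percentile and black lines the median of other ORFs. The copies lie below the grey bar in BED, BPL, BTT and CPI, while YRF1-1 and YRF1-2 in AMH and YRF1-2 and YRF1-3 in CQC lie inside it.

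In CMP, footprints were counted at YRF1 although no mRNA was. The 31 footprint reads fell on copies without a single mRNA read. At YRF1-2, pooled footprint CPM was 178 times the mRNA floor. It rested on 11 footprint reads, 44.9 CPM with a counting interval of 22.4 to 80.3 CPM. This was not peculiar to YRF1. In CMP, 40 ORFs with a mean of at least 5 CPM in the other isolates had no mRNA read, 8 of them YRF1 and 20 other Y' ORFs, and 33 of the 40 had footprints. Of the 12 that were neither, 9 had footprints, with 78 reads. Every other isolate also had such ORFs, 3 to 40 of them, none of them YRF1. In BED 33 of 40 had footprints, with 1058 reads, and in CPI 13 of 14, with 1635 reads. The source of footprint reads at ORFs without mRNA was not tested.

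The other 28 ORFs listed here with the Y' elements followed YRF1 in broad outline. As a group they are taken to share sequence with YRF1, so they are no independent measurement. Their summed mRNA was 1806 ± 154 CPM (SD, n = 2) in BPL, 1462 ± 89.3 in BTT, 1368 ± 7.22 in CPI and 804 ± 13.2 in BED. It was 576 ± 398 in AMH, 465 ± 47.9 in CQC, 85.6 ± 54.6 in BAN and 4.04 ± 0.640 in CMP. In CMP, YDR544C kept 12 and 17 reads and YNL338W 10 and 9, and no other ORF of the group had a read. In BAN, YDR544C and YNL338W held 170 and 152 of the 683 reads of the group. Whether these 2 ORFs lie in Y' elements or share sequence with YRF1 was not tested. Their log2 differences from the other 7 isolates ran against the rest of the group. These were −2.36 and −2.0 in CPI and 1.98 and 1.64 in CMP, none of them called. Since the isolates without reads pull down a mean of logs, counts of calls are given without CMP, as a description. In edgeR's test (Benjamini-Hochberg adjusted over all ORFs), 21 of the 25 tested were then higher in CPI than in the other 6 isolates, 17 in BTT and 16 in BPL, where 29.3%, 30.8% and 24.7% of all ORFs were. In BAN 19 were lower, against 34.2% of all ORFs. The low counts of BAN still weigh on the mean of the others. Single members called higher in CPI could have a lower mean CPM there. YPR203W did, with 5.36 against 12.7 over the other 7 isolates, a mean that includes CMP at 0 reads.

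Some single Y' ORFs departed from the YRF1 order and others followed it. YLL066C had 150 and 147 CPM in CPI, 243 and 272 in BPL, and 6.95 and 2.46 in AMH. YHL050C had 134 and 133 CPM in CPI against 38.97 and 34.9 in CQC. YHR219W and YLL067C were also among the 4 with the largest log2 differences in CPI. These differences were from a mean of logs over the other 7 isolates, which CMP at 0 reads pulls down. Over both libraries, YHR219W had 1922 mRNA reads in CPI, 2340 in BPL and 2138 in BTT. YLL067C had 2204, 3812 and 2509 in the same order. The CPI libraries were deeper than those of BPL and BTT, so neither ORF was highest in CPI. YJL225C had 232 and 73.9 CPM in AMH, more than its 158 and 158 in CPI in the first library and less in the second. Like YRF1, YJL225C, YML133C, YIL177C and YEL077C had no read in CMP, with means of 82.7, 130, 71.8 and 66.1 CPM over the other isolates. Per length, the leading ORF among YRF1 and this group in BAN was YNL338W, with 221 and 73.3 CPM per kilobase, where no YRF1 copy passed 0.592. Per length the leader was YRF1-1 or YRF1-8 in BED, YPR203W in BPL and BTT, YHL050C in CPI and YFL065C in CQC.

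A few other Y' ORFs had more footprints for their mRNA. YPR204W had 9 and 8 footprint reads in AMH, with a TE of 1.52, at the 91.1st percentile. In CQC, TE was 0.882 at YEL077C, 0.750 at YIL177C, 0.643 at YJL225C and 0.445 at YPR204W, each from 10 to 12 footprint reads. In BTT the TE of YPR204W was 0.0270. These ORFs were picked out after their values were seen. The 13 small ORFs on the strand opposite to YRF1 had 0 to 173 mRNA reads per library in sum.

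Genes that maintain telomeres were compared next, since YRF1 lies at chromosome ends. In CPI, 11 of 19 were higher than in the other 7 isolates and the other 8 were not called, with a median log2 difference of 0.50, where 31.4% of all ORFs were higher and the median was 0.02. SGS1, a RecQ helicase, differed by 1.07 ± 0.19 (SE; edgeR adjusted p = 0.000252). RIF1 and RIF2, which limit telomere length, differed by 0.85 ± 0.19 and 0.78 ± 0.16, and YKU70, a subunit of the Ku complex that binds DNA ends, by 0.62 ± 0.098.

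In CMP, 6 of 19 telomere genes were lower and 2 higher, with a median of −0.31, where 26.1% of all ORFs were lower and 27.6% higher. PIF1, a helicase that removes telomerase from chromosome ends, differed by −0.87 ± 0.11 (edgeR adjusted p = 2.08e-05), YKU70 by −0.79 ± 0.12 and RIF1 by −0.69 ± 0.22. TEN1, which caps telomeres together with CDC13 and STN1, was higher by 0.71 ± 0.15. BTT had 8 higher, with a median of 0.40, where 32.8% of all ORFs were higher and 19.8% lower. BPL had 9 higher and 1 lower, with a median of 0.30, against 27.6% and 19%. BED, also high in YRF1, had 3 higher and 5 lower, with a median near 0, against 32.7% and 29.5%. AMH had 2 higher and 8 lower (33.4% and 30.4% of all ORFs) and BAN 2 higher and 9 lower (34% and 33.2%), each with a median of −0.31. CQC had 5 higher and 6 lower, with a median of −0.25, against 35.5% and 37.2%. The 15 members under 1000 codons had medians of 0.49 in CPI and −0.31 in CMP, with 8 higher in CPI and 4 lower in CMP. SGS1, RIF1 and, among the silencing genes, ESC1 and SIR4 are themselves as long as the YRF1 copies or nearly so. The part of length in their differences was not tested.

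**Figure D4:**
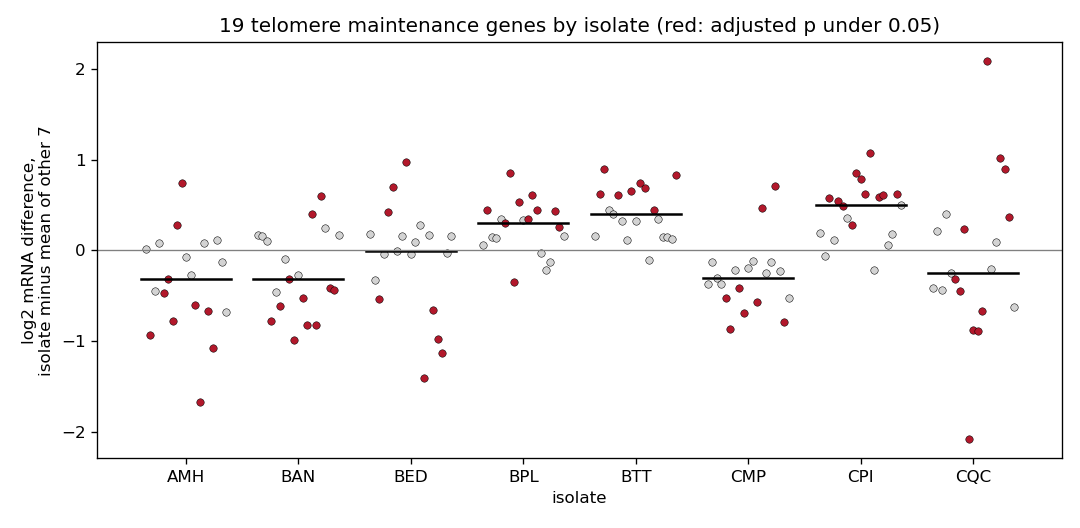
log2 mRNA difference of each of 19 telomere maintenance genes between an isolate and the mean of the other 7 (points; red, adjusted p under 0.05; black line, median). The median is highest in CPI (0.50), and AMH, BAN and CMP have the lowest medians (−0.31 each).

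Silencing genes, which repress genes near telomeres, had no common direction in CPI, with 3 of 10 higher and 1 lower, where 31.4% and 22.4% of all ORFs were. SIR3, a structural part of silent chromatin, differed by 0.85 ± 0.14 in CPI (edgeR adjusted p = 0.000183) and by −0.42 ± 0.17 in CMP (0.0455). SIR4, its partner, differed by 0.41 ± 0.17 in CPI (0.0473), and the calls of SIR4 in CPI and of SIR3 in CMP were lost under some alternatives. ESC1, which anchors silent chromatin at the nuclear envelope, was higher in CPI by 0.58 ± 0.11 and lower in CMP (−0.35 ± 0.12). SAS5, of the SAS histone acetyltransferase, was lower in CPI (−0.44 ± 0.11) and higher in CMP by 0.51 ± 0.10. DOT1, a histone methyltransferase, was lower in CMP (−0.71 ± 0.27).

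Of the recombination genes in CPI, 2 of 8 were higher and 1 lower, near the shares over all ORFs (31.4% and 22.4%). SRS2, a DNA helicase, was higher in CPI by 0.77 ± 0.19 and lower in CMP (−1.21 ± 0.24, edgeR adjusted p = 0.000791). The other 7 members are under 1000 codons and SRS2 is not. Long ORFs moved the same way, and the part of length in its differences was not tested. RAD59, which takes part in the annealing of DNA strands, was lower in CMP (−0.76 ± 0.22). RAD54, a DNA motor protein, was lower in CPI (−0.54 ± 0.12) and RAD57 higher by 0.29 ± 0.090.

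Few of these genes were called in footprints. Of 16 telomere genes tested there in CPI, 1 was higher, against 17.9% of all ORFs, and the median was 0.22. In TE, 1 telomere gene was higher and 2 lower in BTT, where 1.46% and 4.44% of all ORFs were.

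Other ORFs near chromosome ends had an order of their own. Those within 20 kb of an end, 209 of them tested, had a median log2 difference of −0.31 in CPI and 0.30 in CMP, the isolates highest and lowest in YRF1 mRNA. In BAN, where the log2 difference of summed YRF1 mRNA without CMP was −6.08, their median was 1.16, with 125 higher and 38 lower (34% and 33.2% of all ORFs). In BED their median was −1.0, with 39 higher and 105 lower (32.7% and 29.5%). BPL and BTT, next to CPI in YRF1 mRNA, had medians of 0.14 each. In BPL 74 were higher and 54 lower (27.6% and 19% of all ORFs), and in BTT 85 and 48 (32.8% and 19.8%). AMH and CQC had medians of 0.13 and 0.22.

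COS genes, a subtelomeric family of membrane proteins, were split. In CPI 5 of 12 were higher and 7 lower, and in CMP 3 were higher and 6 lower. The shares over all ORFs were 31.4% and 22.4% in CPI, and 27.6% and 26.1% in CMP. COS1 (−2.74) and COS4 (−2.24) were lower in CPI, and COS9 (−1.63) and COS4 (−1.60) in CMP. COS10 and COS12 had the largest positive log2 differences in both isolates, but these come from a mean of logs that other isolates without reads pull down. COS10 had a mean of 31.6 CPM in CPI and 38.6 in CMP and was at 0 reads in BED and BPL. COS12 had 36.5 CPM in CPI and 29.6 in CMP and was at 0 reads in BED. Over the isolates other than CPI, mean CPM was 50.7 at COS10 and 29.5 at COS12. COS genes resemble each other, so their reads too may be counted at several members.

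The genes whose mRNA was most like summed YRF1 over the 8 isolates were named by rank among 5075 genes, with no test. They were APE4 (Pearson r = 0.971), DAN1 (0.965), INA1 (0.961), YKU70 (0.958), LCD1 (0.951) and RAD5 (0.940). The 16 libraries behind these values share the length and depth differences given above. Without CMP the correlations were 0.944, 0.934, 0.970, 0.962, 0.992 and 0.933. DAN1, a cell wall mannoprotein made when oxygen is short, had means of 1017 CPM in BPL, 412 in BTT, 319 in CPI, 8.63 in BAN and 2.18 in CMP. LCD1, the partner of the checkpoint kinase Mec1, ranged from 22.6 CPM in CMP to 65.9 in CPI, and YKU70 from 28.6 in CMP to 73.3 in CPI. RAD5, a DNA repair helicase, ranged from 20.7 CPM in CMP to 97.4 in BTT.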

How the data were processed

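Per the labels' protocols, cells were collected on a filter, footprints were made with RNase I and freed of ribosomal RNA by hybridisation, and mRNA libraries came from a kit that keeps strand. The authors deposited whole-number read counts per ORF, not normalized, with a length per ORF (another value) that equals the codons less 10 for the YRF1 copies. Per the submitters' processing notes, CASAVA 1.8, STAR 2.7.0a and the build sacCer3 were used. Neither the counting tool nor its use of reads that match several genes is given in the sources used here.

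Of 6696 ORFs, 6008 matched the R64 gene table by locus tag. Of the other Y' ORFs 24 of 28 matched, and the others are known by locus tag. The analysis used edgeR 4.0.16 and DESeq2 1.42.0 in R 4.3.3. ORFs passed edgeR's filter (minimum count 10), libraries were scaled by TMM, and differences were called by the quasi-likelihood F-test at a Benjamini-Hochberg adjusted p of 0.05 for 6262 ORFs in mRNA, 5343 in footprints and 5333 in TE, comparing 1 isolate with the mean over the 7 others. TE was the interaction of assay and isolate over 32 libraries. CPM use the reads on all ORFs. Distances to a right chromosome end run to the end of the last gene record there. Where CMP had 0 reads the fitted value depends on the prior count. Ratios of pooled levels to a floor of 3 reads over both libraries, and fits without CMP, are therefore given. Intervals are exact at 95% (Poisson for levels, Clopper-Pearson for TE) and cover counting error only, since reads without molecular identifiers are not independent molecules. On simulated counts, 100% of 200 ORFs changed by 2 on the log2 scale were recovered in each layer. Of the calls, 6.1% in mRNA, 5.21% in footprints and 2.44% in TE fell on unchanged ORFs. The simulation used a fixed dispersion for all ORFs and changed only well-counted ORFs in CPI. It therefore does not speak for ORFs with few reads or for shallow footprint libraries.

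The members and lists were chosen with earlier results of these data known. Genes named are the 8 copies, up to 4 called members of each list with the largest difference in CPI and CMP, and the 6 genes most like the YRF1 sum with a mean of at least 5 CPM. One gene that this rule names is not reported here. No label says that replicates came from separate cultures, and the spread behind p-values may be technical. Alternatives were other scaling, DESeq2, no filter, a replicate block, other Y' ORFs in the sum, and leaving out libraries or isolates. Leaving out CMP, using the copy with most reads and comparing with long ORFs were chosen after seeing the data.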

Additional observations from a re-analysis of the deposited data

How the results depend on the processing

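The log2 difference between CPI and BAN in summed YRF1 mRNA, 7.20, was 6.97 to 7.33 under other scaling, DESeq2, no filter, the copy with most reads and without CMP, but 4.95 with the other Y' ORFs in the sum, and 6.60 to 9.0 with one library left out. The difference in footprints was 2.21 to 9.75 with one library left out, 9.75 without the second BPL library, whose partner has no read. The difference in TE between BAN and BPL, 8.88, was −2.38 without the first BAN footprint library and 17.99 without the second BPL one, so BAN and BPL cannot be ordered in TE. List calls in TE, 20 in all, were 13 with upper-quartile scaling, 31 with the replicate block, 10 without CMP, and 8 to 27 with one library left out, 8 without the first BAN footprint library. Same-numbered mRNA and footprint libraries of an isolate deviated together in all 8 isolates, with r = 0.0826 (BAN) to 0.719 (CPI), but BAN was under 0.1 and no label ties the numbers, so the main values carry no block. With the replicate block the YRF1 mRNA difference was 7.28, and list calls in mRNA were 159 against 157. Calls of other Y' ORFs in footprints were 6, and 4 to 10 with one library left out, 10 without the second AMH library. The median of ORFs near ends in CPI was −0.84 within 10 kb and −0.0892 within 40 kb. Over named genes 774 values kept their call, 43 lost it and none turned round. Scaling moved the median of all ORFs by at most 0.14 on the log2 scale. Causes of these moves were not tested, except where a library without reads is named. Footprint depth limits every statement on BAN, CMP and CQC, with 90957, 244973 and 524553 reads. BPL, with 1660669, was deeper than AMH, with 1483744.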
